A study of Mus musculus with 2207 samples.

Results

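Major histocompatibility complex (MHC) class I molecules carry peptides made inside a cell to its surface, where CD8 T cells and natural killer cells read them. A heavy chain and the light chain beta 2-microglobulin form the molecule, the proteasome cuts the peptides, and the TAP transporter moves them into the endoplasmic reticulum for loading. In the brain, class I molecules are known on microglia, the resident macrophages, and on some neurons, where they have been tied to synapse refinement. Interferons raise most genes of the pathway through shared promoter elements, and the transactivator Nlrc5 acts on the same promoters.

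The genes followed here were taken by symbol, by a rule that uses no measured value. They are the classical heavy chains H2-K1 and H2-D1, the nonclassical heavy chains H2-Q4 and H2-T23, the light chain B2m, the peptide transporter subunits Tap1 and Tap2, the catalytic immunoproteasome subunits Psmb8 and Psmb9, and Nlrc5. All 10 were found among the 52636 genes of both expression tables. Their levels are given as mean RPKM (reads scaled by the length of the gene and by the mapped reads of the nucleus) over the nuclei of 1 cell type label in 1 pool, and a nucleus is called positive where the RPKM was above 0.

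The nuclei were sorted from the cortex of 14-week-old C57BL/6 mice that model Kleefstra syndrome by the loss of 1 copy of Ehmt1, which encodes the histone H3K9 methyltransferase GLP. Full-length total RNA of 2207 single nuclei was read, 730 in 96-well and 1477 in 384-well plates, and the deposited labels call 1664 of them neurons, 397 oligodendrocytes and the rest microglia. The 6 combinations of genotype and plate format, here called pools, came from 3 mice per genotype and held 16 to 36 microglia and 46 to 73 oligodendrocytes each. The 96-well pools were WT (Ehmt1+/+) and Ehmt1Δ/+. The 384-well pools were WT and Ehmt1Δ/+, both with the Ehmt1 iTg transgene but without CamKII-CreER per the labels, iTg (Ehmt1+/+ with Ehmt1 iTg and CamKII-CreER) and Ehmt1Δ/+;iTg (Ehmt1 deletion with Ehmt1 iTg and CamKII-CreER). Ehmt1 iTg is a Cre-inducible GLP transgene, and CamKII-CreER drives a tamoxifen-dependent Cre in forebrain excitatory neurons, so the transgene is meant for those cells alone. All mice, WT included, had received tamoxifen at 100 mg/kg in 2 doses, which the labels place at an age of 3 weeks. No label says which mouse a nucleus came from. Each pool therefore counts as 1 sample, and its nuclei are not replicates.

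Of the 10 genes 8 lie in the MHC region of chromosome 17 (GRCm38). The heavy chain genes there are H2-K1 (ENSMUSG00000061232.15, chr17:33996017-34000347, minus strand), H2-D1 (ENSMUSG00000073411.11, chr17:35262730-35267499, plus strand), H2-Q4 (ENSMUSG00000035929.11, chr17:35379617-35385290, plus strand) and H2-T23 (ENSMUSG00000067212.8, chr17:36029773-36032855, minus strand). The processing genes sit side by side between them, as Psmb9 (ENSMUSG00000096727.2, chr17:34181987-34187764, minus strand), Tap1 (ENSMUSG00000037321.17, chr17:34187553-34197225, plus strand), Psmb8 (ENSMUSG00000024338.14, chr17:34197721-34201454, plus strand) and Tap2 (ENSMUSG00000024339.12, chr17:34203527-34216321, plus strand). B2m (ENSMUSG00000060802.8) is at chr2:122147686-122153083 on the plus strand and Nlrc5 (ENSMUSG00000074151.13) at chr8:94434356-94527272 on the plus strand. Exons of Tap1 and Psmb9 overlap on opposite strands, as do those of Tap2 and Psmb8 with predicted antisense genes, of H2-Q4 with Gm11131 and of Nlrc5 with 9330175E14Rik, and the libraries keep no strand, so reads from such stretches cannot be told apart.

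The promoters of H2-K1, H2-D1, H2-T23 and B2m are shown. Each held a match to an interferon-type pattern given below, though not the same one in all, and the genes did not stand at the same level in neurons. H2-Q4 also held such a match and is not printed. Each run below is the 250 bases before a RefSeq transcription start (GRCm38.p6), 5′ to 3′ on the gene's strand. Capitals mark matches, on either strand, to 5 patterns: the NF-kappaB-type core GGGATTCCC, the interferon-stimulated response element cores TTTCNNTTC and TTTCNNTTT, the cyclic AMP response element core TGACG and the CCAAT box CCAATC. For H2-K1 the second of its RefSeq starts is printed.
H2-K1 (chr17:34000334-34000583, minus strand): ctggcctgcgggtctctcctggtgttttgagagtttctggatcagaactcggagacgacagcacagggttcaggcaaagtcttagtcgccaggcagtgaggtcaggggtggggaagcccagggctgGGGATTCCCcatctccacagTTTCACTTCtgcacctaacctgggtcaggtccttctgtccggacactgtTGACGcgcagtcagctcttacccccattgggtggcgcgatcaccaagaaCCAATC
H2-D1 (chr17:35262844-35263093, plus strand): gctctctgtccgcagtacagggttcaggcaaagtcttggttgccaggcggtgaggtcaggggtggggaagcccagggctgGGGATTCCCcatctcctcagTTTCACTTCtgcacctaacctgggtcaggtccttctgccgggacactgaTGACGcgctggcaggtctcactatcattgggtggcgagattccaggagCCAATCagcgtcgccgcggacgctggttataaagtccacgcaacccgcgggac
H2-T23 (chr17:36032702-36032951, minus strand): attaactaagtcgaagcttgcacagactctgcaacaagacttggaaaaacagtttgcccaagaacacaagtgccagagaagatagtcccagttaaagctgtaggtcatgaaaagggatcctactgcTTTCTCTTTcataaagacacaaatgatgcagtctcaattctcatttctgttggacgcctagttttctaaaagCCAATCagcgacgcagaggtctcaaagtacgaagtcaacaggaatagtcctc
B2m (chr2:122147437-122147686, plus strand): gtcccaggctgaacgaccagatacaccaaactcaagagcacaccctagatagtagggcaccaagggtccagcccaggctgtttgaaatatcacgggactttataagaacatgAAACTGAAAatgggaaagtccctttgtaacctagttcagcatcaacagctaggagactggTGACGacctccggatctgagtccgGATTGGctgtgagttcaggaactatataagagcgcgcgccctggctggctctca

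The printed windows of H2-K1 and H2-D1 held the same 4 kinds of match in the same order, while the window of the first H2-K1 start held 3 of them, without CCAATC. The pattern GGGATTCCC was in 0.301% of 32851 RefSeq promoter windows of the same length, TTTCNNTTC in 6.31%, TTTCNNTTT in 9.37%, TGACG in 17.8% and CCAATC in 14.6%. B2m held a TTTCNNTTT match on the minus strand with TGACG and CCAATC, and H2-T23 held TTTCNNTTT and CCAATC. H2-Q4 held TTTCNNTTC, TGACG and CCAATC, the windows of Tap1 and Psmb9, which overlap on opposite strands, held TGACG and CCAATC, and the Psmb8 window held none of the 5 patterns. A match is a description of the letters, and 8 of the 10 genes had a window in the table.

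The cell type labels were checked against marker genes. Microglia markers (8 genes, among them Csf1r and the complement genes C1qa, C1qb and C1qc) summed to 2474 to 4093 RPKM in the microglia of the 6 pools and to 6.72 to 11.8 RPKM in neurons. Oligodendrocyte markers (6 genes) summed to 2939 to 4483 RPKM in oligodendrocytes and to 7.33 to 14.6 RPKM in neurons. Neurons had a pool median of 323273 to 397880 mapped reads per nucleus over both plate formats. Glia had 441701 to 510639 in the 96-well plates but 39940 to 54877 in the 384-well plates, so a share of positive glia is limited by depth there. The heavy chains are near copies of each other, and their values were often not whole numbers of reads. This held for 59.1% of the values above 0 for H2-K1, 59% for H2-D1, 68.1% for H2-T23, 85.6% for H2-Q4, 42.2% for Tap2, 31.9% for Psmb8, 16.8% for Psmb9, 10.5% for Tap1, 3.91% for Nlrc5 and 0.455% for B2m. The split between genes that share sequence is uncertain to that extent.

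The targeted gene itself went against its label at the level of the whole gene. Ehmt1 had 18.7 RPKM in WT and 31.2 RPKM in the pool labelled Ehmt1Δ/+ in 96-well neurons, 19.5 and 31.7 RPKM in 384-well neurons, and 20.7 and 33.9 RPKM in the neurons of iTg and of the pool labelled Ehmt1Δ/+;iTg. Reads from anywhere in the gene enter this value, the part outside the deletion included, so it does not check the allele. Ehmt1Δ/+ is therefore used below as the label of a pool.

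The WT 96-well pool also stood apart. Neuron markers (6 genes) summed to 75 RPKM in its microglia and 61.2 RPKM in its oligodendrocytes, against 1.63 to 16.8 and 3.85 to 15.9 RPKM in the other 5 pools. Both the excitatory marker Slc17a7 and the inhibitory marker Gad1 were above 0 in 69.6% of its neurons, against 13.4 to 34% elsewhere.

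Microglia carried the full pathway, and neurons carried part of it. The mean RPKM of all 10 genes was higher in microglia than in neurons without overlap of the 6 pools, a pattern that 10.4% of 29398 genes showed. Without the highest nucleus of each pool 9 of the 10 genes had it. The exception was Nlrc5, for which 1 nucleus held 89% of the sum in iTg microglia and the mean without it was 0.116 RPKM, below the 0.143 RPKM of iTg neurons without theirs. Since the labels come from clustering the same nuclei, these cell type differences are a description without a test. In microglia, B2m stood first with 29.4 to 302.5 RPKM (106.5 ± 106.3, mean ± SD of 6 pools), followed by H2-K1 with 40.1 to 96.3 RPKM (61.3 ± 21.9) and H2-D1 with 19.1 to 46.2 RPKM. H2-T23 (14.8 to 26.7 RPKM), Tap1 (8.21 to 43.2), Tap2 (9.53 to 16.1), Psmb9 (4.59 to 22.3), H2-Q4 (3.43 to 29.99), Nlrc5 (0.995 to 15.7) and Psmb8 (2.03 to 6.27) came after them, and no neighbours in this order had separate ranges over the pools.

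In neurons the order was different. H2-T23 with 4.13 to 7.10 RPKM (5.55 ± 1.03, mean ± SD of 6 pools) and H2-D1 with 4.19 to 6.63 RPKM (5.37 ± 0.946) stood first, and their ranges overlapped almost wholly. B2m followed with 1.32 to 9.36 RPKM, then Tap2 with 0.711 to 1.51, H2-K1 with 0.388 to 1.24 (0.660 ± 0.30), Tap1 with 0.260 to 0.624 and Nlrc5 with 0.113 to 0.350 RPKM. The immunoproteasome subunits were close to absent, with Psmb9 at 0.0106 to 0.153 RPKM and Psmb8 at 0 to 0.0505 RPKM, and H2-Q4 stood at 0.0217 to 0.0380 RPKM. Here too no neighbours in the order had separate ranges.

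**Figure D1:**
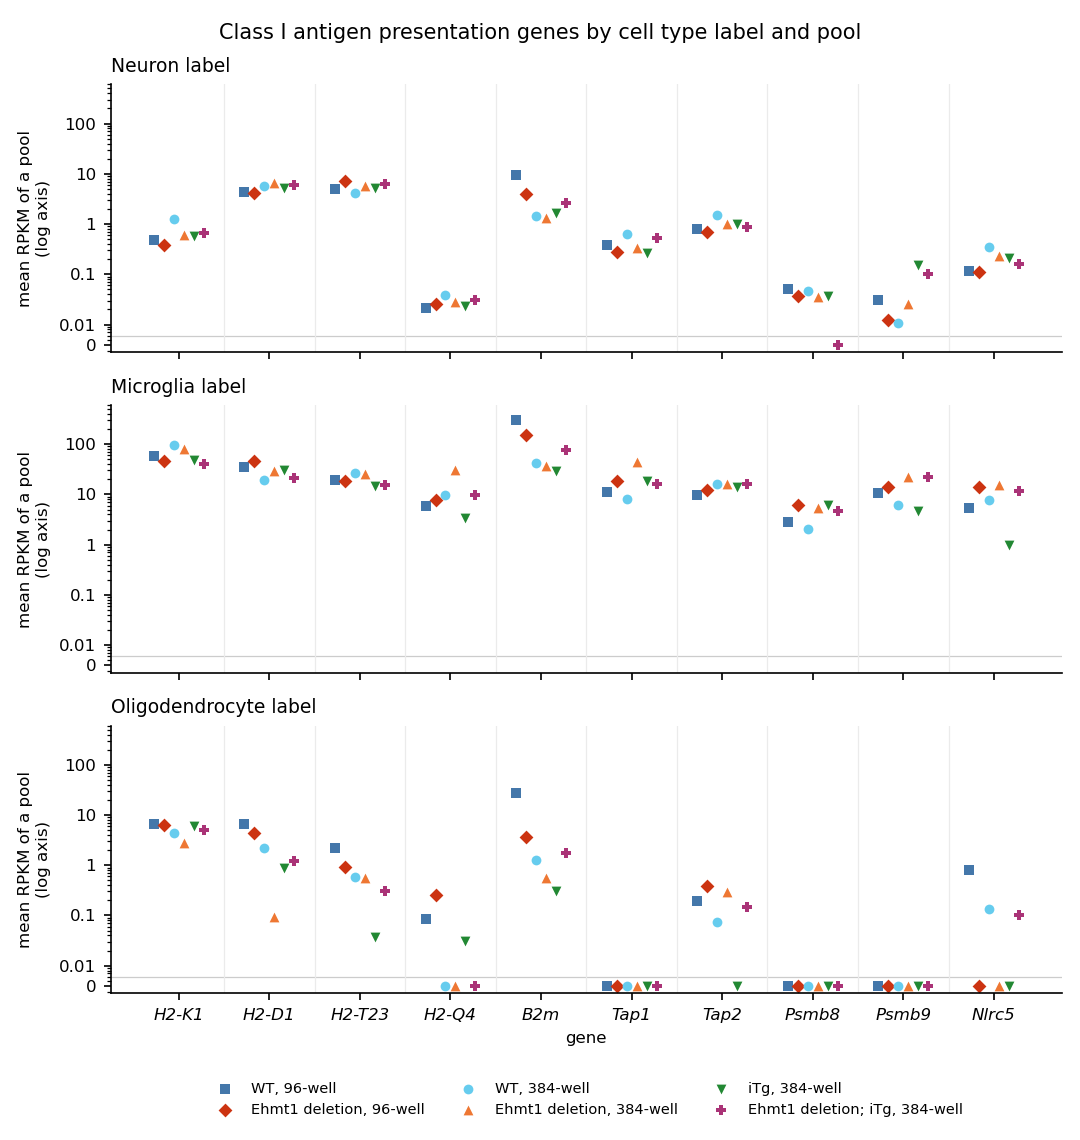
Mean RPKM (log axis, with 0 drawn on a separate line) of the 10 class I pathway genes in the neurons, microglia and oligodendrocytes of the 6 pools, 1 symbol per pool. H2-D1 and H2-T23 sit between 4 and 8 RPKM in neurons while H2-K1 sits near 1 or below, and Tap1, Psmb8 and Psmb9 lie at 0 in oligodendrocytes.

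The ratio of the mean level in microglia to that in neurons therefore ran from small to very large within 1 pathway. It was 3.62 for H2-T23 and 5.63 for H2-D1. It was 14.2 for Tap2, 31.1 for B2m, 46.7 for Nlrc5, 48.5 for Tap1, 92.8 for H2-K1, 132.5 for Psmb8, 238.7 for Psmb9 and 395 for H2-Q4. The level in neurons as a percentage of that in microglia of the same pool was 15.5 to 40.5% for H2-T23 and 9.07 to 29.7% for H2-D1. For microglia markers the same percentage was 0.0106 to 0.0971% for Ctss, 0.00522 to 0.0653% for C1qa, 0.105 to 0.241% for Csf1r and 0.450 to 0.883% for P2ry12. The H2-T23 and H2-D1 percentages lay above those of all 8 microglia markers in each pool. H2-K1 was at 0.765 to 1.66%.

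The classical heavy chains thus changed places between the cell types. In neurons H2-D1 exceeded H2-K1 in all 6 pools, with a ratio of mean RPKM of 9.15 in WT and 10.8 in Ehmt1Δ/+ of the 96-well plates, 4.58 in WT, 10.9 in Ehmt1Δ/+, 9.12 in iTg and 9.02 in Ehmt1Δ/+;iTg of the 384-well plates. In microglia the same ratio was below 1 in all 6 pools, from 0.199 to 0.992. H2-T23 behaved likewise, at 3.33 to 18.3 times H2-K1 in neurons and 0.277 to 0.404 times in microglia. The division of reads among heavy chain copies, given above, bears on these ratios and its part in them was not tested.

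**Figure D2:**
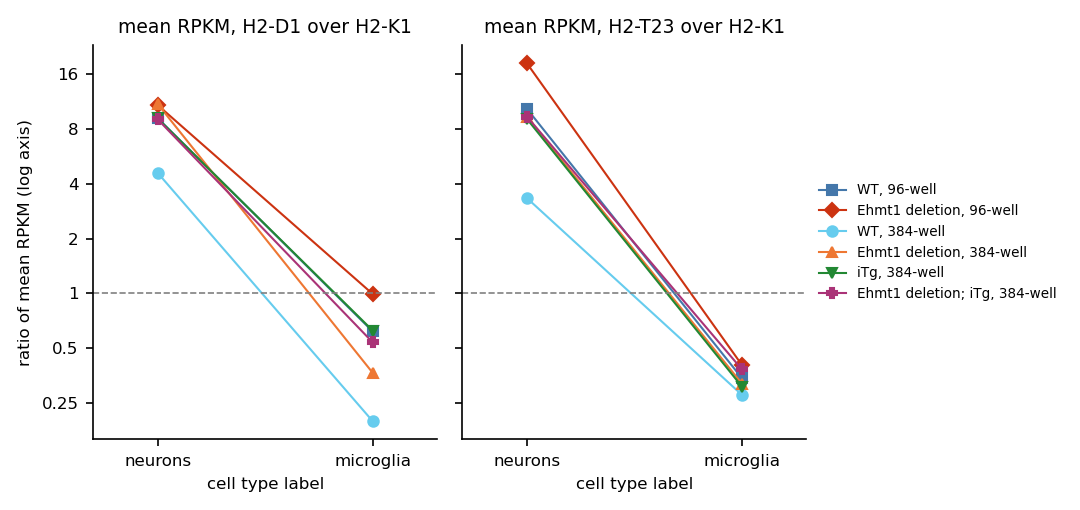
Ratio of mean RPKM (log axis) of H2-D1 to H2-K1 (left) and of H2-T23 to H2-K1 (right) in neurons and microglia, with a line joining the values of 1 pool and a dashed line at 1. Every pool lies above 1 in neurons (4.58 to 10.9 left, 3.33 to 18.3 right) and below 1 in microglia (0.199 to 0.992 left, 0.277 to 0.404 right).

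In oligodendrocytes most members were low or at 0. H2-K1, the chain that was low in neurons, reached 2.80 to 6.48 RPKM there, and H2-D1 0.0936 to 6.70 RPKM. The 14 other class I heavy chain genes summed to 27.4 to 60.1 RPKM there. B2m was at 27.5 RPKM (11.1 RPKM without the highest nucleus) in the WT and 3.63 RPKM in the Ehmt1Δ/+ pool of the 96-well plates and at 0.312 to 1.73 RPKM in the 384-well pools, where no more than 3 nuclei of a pool were positive. H2-D1 in the WT 96-well pool was 2.90 RPKM without its highest nucleus. H2-T23 stood at 0.0378 to 2.21 RPKM. Tap1, Psmb8 and Psmb9 were at 0 in all 397 oligodendrocytes. By counting error alone this allows a share of positive nuclei in a pool of up to 4.11% (WT, 96-well) to 6.52% (Ehmt1Δ/+, 384-well). Tap1, Tap2, Psmb9 and H2-T23 were higher in neurons than in oligodendrocytes without overlap of the pools, as 30.6% of genes were, and all 10 genes were higher in microglia than in oligodendrocytes without overlap, as 9.35% of genes were. The 384-well oligodendrocytes had fewer reads than the neurons beside them, and the part of depth in the zeros was not tested.

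The share of positive nuclei showed the same contrast between chains. H2-D1 was above 0 in 61.5 to 75.5% and H2-T23 in 54.5 to 74.3% of the neurons of a pool, against 18.1 to 26.3% for H2-K1. Counting only nuclei with at least 1 whole read, 7.52 to 13% of neurons held H2-K1, since 52.6% of its positive neurons had less than 1 read of it. Tap2 was above 0 in 23.9 to 35.6% of neurons and Tap1 in 5.88 to 12.6%. In microglia 8 of the 10 genes had a higher share than in neurons in all 6 pools. H2-D1 had it in 3 pools and H2-T23 in 5. Once nuclei were thinned to an equal number of reads within a plate format, all 10 genes had it in all 6 pools. Thinning left out 2 of 16 WT and 1 of 19 Ehmt1Δ/+ microglia of the 384-well plates, which had too few reads. How many of all genes had a higher share in microglia was not computed, so these counts have no background beside them. Intervals and limits on shares cover counting error only, since each pool is 1 sample. The libraries carry no molecular barcodes.

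Few neurons held several members at the same time. The median neuron had 3 positive members in the WT 96-well pool and 2 in the other 5 pools, 5 or more were positive in 3.59 to 11.9% of neurons, and none was positive in 3.56 to 17.1%. The median microglial nucleus had 7 or 8 positive members in the 96-well and 4 to 6 in the 384-well pools, and no microglial nucleus lacked all 10. B2m was positive more often in neurons with H2-D1 than in neurons without it, in each of the 6 pools: 63.4 against 48.4% and 40.7 against 28.9% in the WT and Ehmt1Δ/+ 96-well pools, and 25.9 against 14.1%, 20.4 against 16%, 24.9 against 13.2% and 34.4 against 25.8% in the WT, Ehmt1Δ/+, iTg and Ehmt1Δ/+;iTg 384-well pools. Nuclei with more reads can be positive for both genes, and the part of depth in this was not tested.

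Partner genes of the pathway, listed by role, were less uneven. Peptide loading genes (8 genes) summed to 66.4 to 120 RPKM in neurons and 136.1 to 253.2 RPKM in microglia, and all were measured in both. The highest in neurons were the endoplasmic reticulum chaperones Calr (29.1 to 43.1 RPKM, against 32.7 to 65.3 in microglia) and Canx (7.28 to 23.9 RPKM, against 13.9 to 50.9). The 10 proteasome genes outside the member list summed to 55.2 to 73.2 RPKM in neurons and 86.7 to 127.3 RPKM in microglia. The 14 other class I heavy chain genes summed to 23.6 to 37.9 RPKM in neurons, most of it from H2-T24 (12.6 to 27.3 RPKM), and to 78.4 to 205.02 RPKM in microglia.

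Class II genes and regulators were uneven in another way. The 7 class II genes summed to 23.3 to 61.1 RPKM in microglia and to 4.52 to 9.58 RPKM in neurons, with 1 of the 7 at 0 in the microglia of all pools. That gene was H2-Aa, a chain of the class II molecule that presents to CD4 T cells. Cd74, the invariant chain, stood at 0 to 2.84 RPKM in microglia and 0.204 to 0.547 RPKM in neurons. Ciita, the class II transactivator and relative of Nlrc5, had 5.65 to 6.52 RPKM in neurons with 80.1 to 85.7% of neurons positive, and 0 to 1.33 RPKM in microglia with 0 to 15.8% positive. Ciita, H2-Aa and Cd74 were picked out after their values were seen. Irf8, a transcription factor of myeloid cells, stood at 53 to 83.3 RPKM in microglia and 0.187 to 0.537 RPKM in neurons.

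Within neurons, 4 members differed between excitatory and inhibitory cells, a share near that of all genes. Each neuron was placed by the larger of Slc17a7 (the vesicular glutamate transporter) and Gad1 (the GABA-making enzyme), which gave 1324 excitatory neurons and 43 to 73 inhibitory neurons per pool, and the other genes were tested with limma on log2(mean RPKM + 0.1) with the pool as a block over 6 pools. Of 25588 genes tested, 10372 (40.5%) passed an adjusted p under 0.05, 21.3% higher and 19.2% lower in inhibitory neurons. Of the 10 members 7 were tested. H2-T23, H2-D1 and B2m were lower and Nlrc5 was higher in inhibitory neurons, while H2-K1, Tap1 and Tap2 did not pass.

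H2-T23 was the heavy chain with the largest class difference. In excitatory neurons its mean was 6.08 RPKM in WT and 8.31 in Ehmt1Δ/+ of the 96-well plates, and 4.89 in WT, 6.5 in Ehmt1Δ/+, 6.32 in iTg and 7.30 in Ehmt1Δ/+;iTg of the 384-well plates. In inhibitory neurons of the same pools it was 1.38, 0.982, 2.07, 1.33, 0.847 and 1.23 RPKM. Every excitatory value lay above every inhibitory one. The difference on the log2(RPKM + 0.1) scale was -2.28 with a standard error of 0.22 and an adjusted p of 0.000283 by limma. Positive neurons made up 59.5 to 78.2% of the excitatory and 30.8 to 53.5% of the inhibitory class.

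Nlrc5 went the other way. It was above 0 in 63 inhibitory neurons and in 14 of the 1324 excitatory neurons. Its mean in excitatory neurons was 0, 0.0182, 0.107, 0.0225, 0.0204 and 0.0803 RPKM in the 6 pools in the order above, and in inhibitory neurons 0.477, 0.605, 1.06, 1.27, 0.99 and 0.526 RPKM. The classes did not overlap, and the share of positive inhibitory neurons was 14.5 to 25% per pool against 0 to 2.38% of excitatory neurons. The difference was 2.67 on the log2(RPKM + 0.1) scale with a standard error of 0.21 and an adjusted p of 0.000116 by limma. Nlrc5 passed the filter on low values only through the inhibitory class. It remained called with no filter. Its overlapping antisense gene 9330175E14Rik was above 0 in 3 inhibitory and 11 excitatory neurons, and in 2 of the 63 inhibitory neurons with Nlrc5. The inhibitory level of Nlrc5, 0.821 ± 0.329 RPKM (mean ± SD of 6 pools), lay below the microglial level of the same pool in all 6 pools, though barely so in iTg. In iTg microglia the level was 0.995 RPKM from 2 positive nuclei and 0.116 RPKM without the higher of them, against 0.99 RPKM in inhibitory neurons.

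H2-D1 and B2m differed less between the classes. H2-D1 had 4.59, 4.67, 6.37, 6.75, 6.11 and 6.36 RPKM in excitatory and 3.74, 1.81, 3.48, 6.02, 2.08 and 4.36 RPKM in inhibitory neurons of the 6 pools. It was lower in the inhibitory neurons of each pool although the ranges overlapped, with a difference of -0.78 on the log2(RPKM + 0.1) scale, a standard error of 0.20 and an adjusted p of 0.0186 by limma. The call was lost without the Ehmt1Δ/+ 96-well pool (adjusted p = 0.0516), without the WT 384-well pool (adjusted p = 0.0509) and with classes set by 1 marker above 0 and the other at 0 (adjusted p = 0.0649). B2m had 11.1, 4.64, 1.5, 1.42, 1.70 and 3.02 RPKM in excitatory and 4.13, 1.11, 1.44, 0.904, 1.73 and 1.01 RPKM in inhibitory neurons, lower in 5 of 6 pools. Its difference was -0.91 on the same scale with a standard error of 0.29 and an adjusted p of 0.0416 by limma. That call was lost with no filter on low values (adjusted p = 0.0769), without either 96-well pool (adjusted p = 0.108 without WT and 0.0948 without Ehmt1Δ/+), without the Ehmt1Δ/+ 384-well pool (adjusted p = 0.0666) and without the Ehmt1Δ/+;iTg pool (adjusted p = 0.106).

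**Figure D3:**
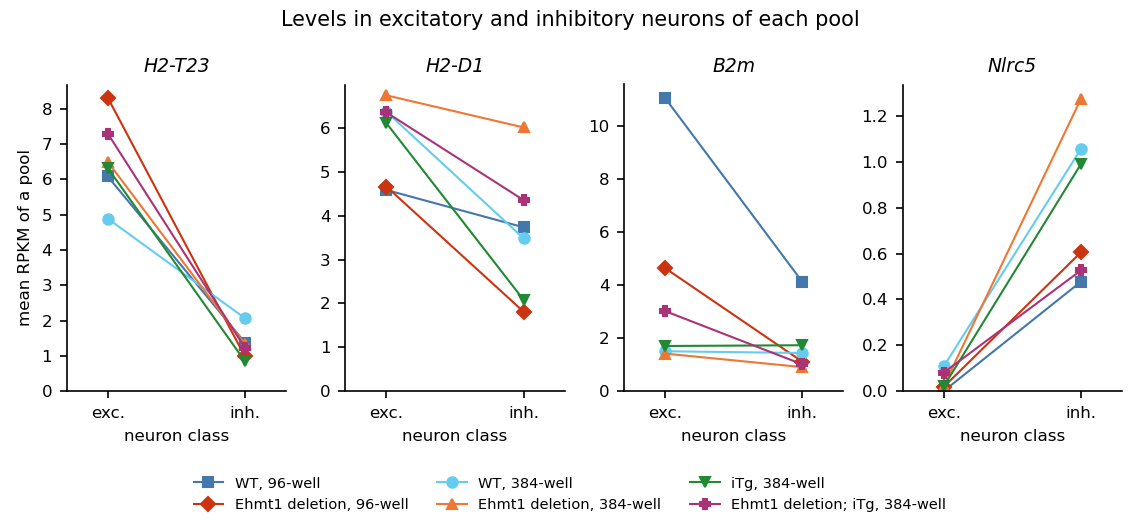
Mean RPKM of H2-T23, H2-D1, B2m and Nlrc5 in excitatory (exc.) and inhibitory (inh.) neurons, each axis from 0, with a line joining the classes of 1 pool. H2-T23 falls from 4.89 to 8.31 RPKM in excitatory to 0.847 to 2.07 RPKM in inhibitory neurons, and Nlrc5 lies at or below 0.107 RPKM in excitatory and between 0.477 and 1.27 RPKM in inhibitory neurons.

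The members that did not pass had differences of 0.39 for Tap2 (adjusted p = 0.101), 0.25 for H2-K1 (adjusted p = 0.388) and 0.19 for Tap1 (adjusted p = 0.678) on the log2(RPKM + 0.1) scale by limma. Psmb8, Psmb9 and H2-Q4 were too low to be tested. The median mitochondrial share of a nucleus was higher in the inhibitory class of each pool, for example 0.183 against 0.104% in the WT 96-well pool, and its part in these differences was not tested. None of the 3 microglia markers that could be tested passed, with differences of -0.06 for Csf1r and -0.21 for P2ry12. Of the 6 neuron markers, among them Slc17a7 and Gad1 that set the classes, 5 were lower and 1 was higher in inhibitory neurons. Their median was -0.49, and 40.5% of all genes tested were called. Of the oligodendrocyte markers Mbp and Mobp were lower by 1.40 and 2.15 and Mog was higher, by 0.70, in inhibitory neurons, and of the astrocyte markers Gfap (-0.48) and Aldh1l1 (-1.52) were lower. Itm2a (1.05) and Tek (-0.77), both endothelial markers, went opposite ways. The part of these markers in the member differences was not tested.

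Of the 12 tested regulators of class I genes 4 were higher and 5 lower in inhibitory neurons, with a median of 0.01 against 0.02 over all genes tested, of which 40.5% were called. Among the lower genes were the interferon regulatory factors Irf1 (-1.42), Irf2 (-0.81) and Irf8 (-1.81) and the CCAAT-binding subunit Nfyb (-0.44). The X-box binding subunits Rfx5 (1.09) and Rfxank (0.33) and the NF-kappaB subunits Nfkb1 (0.41) and Rela (0.32) were higher. Ciita did not pass (0.12, adjusted p = 0.331 by limma).

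In the other lists the counts are to be read against the same 40.5%. Of 10 proteasome genes Psme1 (0.89) and Psme2 (0.79), the subunits of the PA28 activator, were higher and none was lower, with a list median of 0.13. Of 8 peptide loading genes only Canx was higher (0.42). Of 11 other class I heavy chains H2-T10 (0.73) and the lipid-presenting Cd1d1 (2.22) were higher and H2-Q1 (-0.40), H2-Q6 (-0.39) and H2-T24 (-0.39) lower, with a median of -0.14. Of 10 interferon response genes Ifit1 (0.79) was higher and Ifngr2 (-0.30), Isg15 (-0.55) and Stat2 (-0.34) were lower. The only tested class II gene, H2-DMa, a peptide exchange factor, was lower (-0.86), and neither tested receptor of class I, Pirb (-0.03) or Cd247 (0.33), passed.

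The comparison of the pools labelled Ehmt1Δ/+ with WT asks whether the loss of 1 Ehmt1 copy moved the pathway. It was fitted with limma on the WT and Ehmt1Δ/+ pools of both plate formats, with the format as a block. This left 2 pools for each genotype and 1 residual degree of freedom. In the 384-well plates WT had a plate code of its own while the other 3 pools shared another, so plate code and genotype cannot be told apart there. In neurons 0 of 23853 genes passed an adjusted p under 0.05 (0%), while 761 (3.19%) were higher and 1667 (6.99%) lower at an unadjusted p under 0.05. The pool labelled Ehmt1Δ/+ was above WT in both formats for 23.6% and below in both for 35% of genes tested.

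H2-T23 was the member that stood higher in both formats in neurons labelled Ehmt1Δ/+. Its mean was 4.93 RPKM in WT and 7.10 in Ehmt1Δ/+ in the 96-well plates and 4.13 and 5.63 RPKM in the 384-well plates. With the transgene and CamKII-CreER it was 5.31 in iTg and 6.21 RPKM in Ehmt1Δ/+;iTg. The difference was 0.48 on the log2(RPKM + 0.1) scale with a standard error of 0.10, an unadjusted limma p of 0.0129 and an adjusted p of 0.462. Each genotype had 4 plate codes in the 96-well format, of which both shared 3, and neurons of the shared codes gave 3.54 and 6.54 RPKM, 3.95 and 7.29 RPKM, and 5.93 and 7.42 RPKM in WT and Ehmt1Δ/+. Excitatory neurons made up 75.5% of WT and 83% of Ehmt1Δ/+ neurons there, and the difference in excitatory neurons alone was 0.42. The difference did not pass the adjusted threshold.

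Tap1 stood lower in neurons labelled Ehmt1Δ/+, at 0.385 and 0.271 RPKM in WT and Ehmt1Δ/+ of the 96-well and 0.624 and 0.326 RPKM of the 384-well plates, a difference of -0.57 with a standard error of 0.14, an unadjusted limma p of 0.0195 and an adjusted p of 0.468. Of the 3 shared plate codes of the 96-well format, 2 had less Tap1 in neurons labelled Ehmt1Δ/+ (0.675 and 0.317, 0.405 and 0.169 RPKM in WT and Ehmt1Δ/+) and 1 had more (0.127 and 0.409 RPKM). With transgene and CamKII-CreER the order was the other way, 0.260 RPKM in iTg and 0.518 in Ehmt1Δ/+;iTg. H2-K1 (-0.58, adjusted p = 0.496), B2m (-0.67, adjusted p = 0.547) and Tap2 (-0.35, adjusted p = 0.540) were lower in both formats without passing. H2-D1 differed by 0.08 (adjusted p = 0.867), and Psmb8, Psmb9, H2-Q4 and Nlrc5 were too low to be tested.

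In microglia most members stood higher in the pools labelled Ehmt1Δ/+ in both formats, but none passed. All 10 were tested among 13686 genes, of which 0 passed an adjusted p under 0.05 (0%), and 0.899% were higher and 1.03% lower at an unadjusted p under 0.05 by limma. H2-D1, Tap1, Tap2, Psmb8, Psmb9, H2-Q4 and Nlrc5, 7 of 10, were higher in both formats, as 25.1% of genes were. H2-K1, B2m and H2-T23 were lower in both, as 25.7% were.

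The largest difference was that of Tap1, from 11.2 to 18.2 RPKM in the 96-well and from 8.21 to 43.2 RPKM in the 384-well plates (1.54 on the log2 scale, standard error 0.67, adjusted p = 0.920 by limma). Psmb8 went from 2.79 to 6.27 and from 2.03 to 5.35 RPKM (1.25, standard error 0.46, adjusted p = 0.920). Nlrc5 went from 5.38 to 13.9 and from 7.64 to 15.7 RPKM (1.19, standard error 0.46, adjusted p = 0.920). With transgene and CamKII-CreER, iTg and Ehmt1Δ/+;iTg microglia had 0.995 and 11.7 RPKM of Nlrc5 but 18.8 and 15.9 RPKM of Tap1 and 6.24 and 4.78 RPKM of Psmb8. Under the 3 shared plate codes of the 96-well format Tap1 in microglia was 5.95 and 25.6, 15.8 and 12.4, and 4.25 and 16.4 RPKM in WT and Ehmt1Δ/+. The WT 384-well pool held 16 microglia and the Ehmt1Δ/+ one 19, and 3 and 15 of them had Tap1.

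Markers of border macrophages, which sit at vessels and meninges, were seen in more microglia-labelled nuclei of the pools with the Ehmt1 deletion. Of the 3 markers 1 could be tested against WT by limma. It differed by 4.34 on the log2(RPKM + 0.1) scale and did not reach an unadjusted p under 0.05. Among all genes tested in microglia 25.1% were higher in both formats. Mrc1, Lyve1 or Cd163 was above 0 in 6 of 36 WT and 16 of 32 Ehmt1Δ/+ nuclei of the 96-well plates, in 1 of 16 and 5 of 19 of the 384-well plates, and in 1 of 20 iTg and 8 of 23 Ehmt1Δ/+;iTg nuclei. The summed level of the 3 markers was 34.6 and 111.6 RPKM, 0.158 and 52.5 RPKM, and 0.0909 and 4.96 RPKM in the same order. Without these nuclei the differences were 1.34 for Tap1, 1.35 for Psmb8, 1.20 for Nlrc5, 0.89 for Psmb9, 1.20 for H2-Q4, 0.48 for H2-D1 and 0.31 for Tap2, and none passed. The neuron markers summed to 75 RPKM in WT and 16.8 RPKM in Ehmt1Δ/+ microglia of the 96-well plates and their part was not tested.

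Tap1 and Tap2 were lower in neurons and higher in microglia labelled Ehmt1Δ/+, and H2-T23 the reverse, though by only -0.063 and -0.076 on the log2 scale in microglia of the 96-well and 384-well plates. The difference between these deletion effects was tested with limma, a test added after the data were seen, and 0 of 12616 genes passed an adjusted p under 0.05 (0%), while 0.824% were higher and 0.896% lower in microglia than in neurons at an unadjusted p under 0.05. The effect in microglia minus that in neurons was 2.11 for Tap1 (standard error 0.75, adjusted p = 0.918), 0.53 for Tap2 and -0.55 for H2-T23 on the log2 scale.

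**Figure D4:**
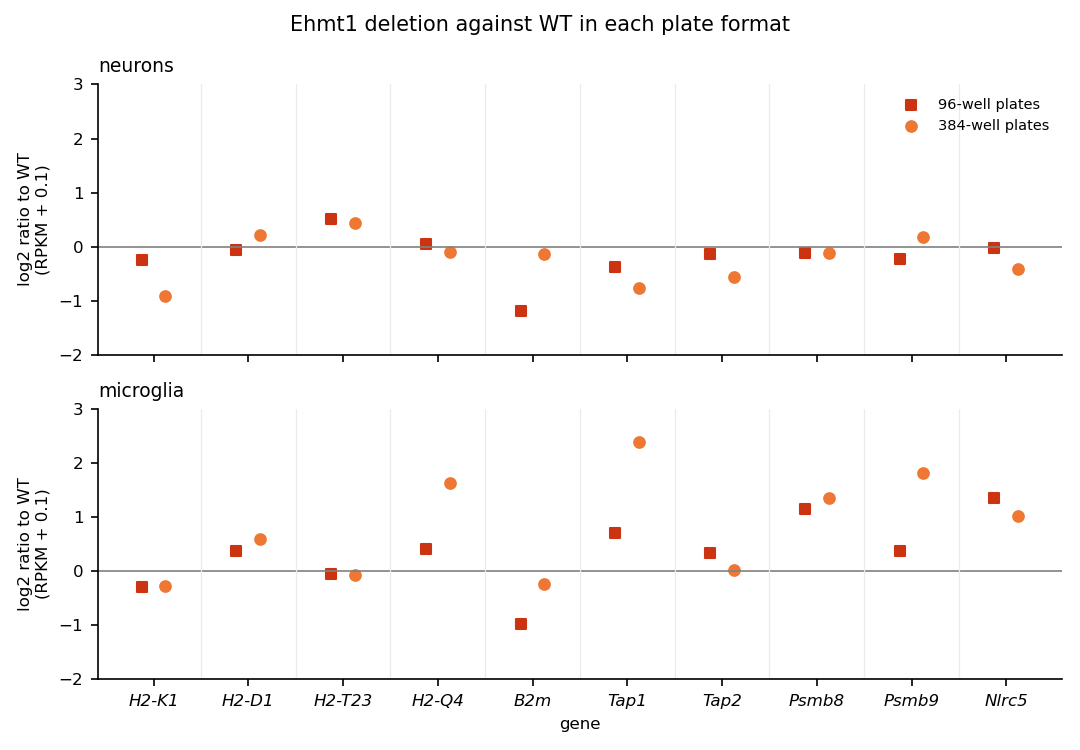
Log2 ratio of the mean RPKM in the pool labelled Ehmt1Δ/+ to that in WT (with 0.1 RPKM added to each) for the 10 genes in neurons (top) and microglia (bottom), 1 symbol per plate format and a line at 0. H2-T23 is above 0 in both formats in neurons (0.52 and 0.44), and 7 genes are above 0 in both formats in microglia, led by Tap1 (0.70 and 2.38), with no difference past the adjusted threshold.

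Oligodendrocytes allowed a test of 2 members among 12832 genes. No gene passed an adjusted p under 0.05 (0%), and 1.68% were higher and 3.04% lower at an unadjusted p under 0.05 by limma. H2-K1 had 6.48 and 6.26 RPKM in WT and Ehmt1Δ/+ of the 96-well and 4.31 and 2.80 RPKM of the 384-well plates (-0.33, adjusted p = 0.891). H2-D1 had 6.70 and 4.43 RPKM, and 2.22 and 0.0936 RPKM (-2.08, adjusted p = 0.870). Both genes were lower in both formats, as 28.1% of genes were, while 24.4% were higher in both.

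The induced transgene was compared with no CamKII-CreER in the neurons of the 384-well plates, with the deletion as a covariate. By limma 0 of 23827 genes passed an adjusted p under 0.05 (0%), and 0.638% were higher and 0.781% lower at an unadjusted p under 0.05. The 6 members tested differed by -0.43 (H2-K1), -0.33 (Tap2), -0.24 (Tap1), -0.11 (H2-D1), 0.25 (H2-T23) and 0.57 (B2m) on the log2(RPKM + 0.1) scale. CamKII-CreER, the induced transgene and the pool cannot be told apart in this design.

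B2m varied between pools more than the heavy chains did. In neurons it was positive in 59.7% of WT and 37.4% of Ehmt1Δ/+ nuclei of the 96-well plates, and in 22.1% of WT, 19% of Ehmt1Δ/+, 20.4% of iTg and 31.4% of Ehmt1Δ/+;iTg nuclei of the 384-well plates. The mean level was 9.36 and 4.03 RPKM in the 96-well pools and 1.48, 1.32, 1.69 and 2.66 RPKM in the 384-well pools, so both 96-well pools lay above the others. In microglia the 96-well pools had 302.5 and 152.8 RPKM against 29.4 to 74.9 RPKM, and the ratio of B2m to H2-D1 in neurons ran from 0.200 to 2.14.

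The mitochondrial share, which stems from RNA outside the nucleus, moved with B2m between the 96-well pools. Its median was 0.116% in WT and 0.0267% in Ehmt1Δ/+ neurons, 0.993 and 0.242% in microglia, and 0.372 and 0.115% in oligodendrocytes, where B2m was 27.5 (11.1 without the highest nucleus) and 3.63 RPKM. The summed level of 10 abundant cytosolic mRNAs, a list added after the data were seen, was 161.9 and 95 RPKM in the same neurons. It was 606.4 and 559.9 RPKM in the microglia of these pools, and 160.3 to 185.1 RPKM in the 384-well neurons, whose B2m was lower than that of both 96-well pools. A plate code shared by both genotypes is not a shared plate, as said above. Under each of the 3 shared codes B2m was lower in neurons labelled Ehmt1Δ/+ than in WT, at 13.9 and 4.94, 7.96 and 2.83, and 7.32 and 2.23 RPKM in WT and Ehmt1Δ/+. In oligodendrocytes 1 of these codes ran the other way, with B2m at 3.42 and 4.26 RPKM and a mitochondrial share of 0.380 and 0.119%. In the 384-well neurons the mitochondrial share was 0.0540% in WT, 0.103% in Ehmt1Δ/+, 0.132% in iTg and 0.0877% in Ehmt1Δ/+;iTg, an order that B2m did not follow. The part of carried-over cytoplasm in the B2m difference was not tested.

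**Figure D5:**
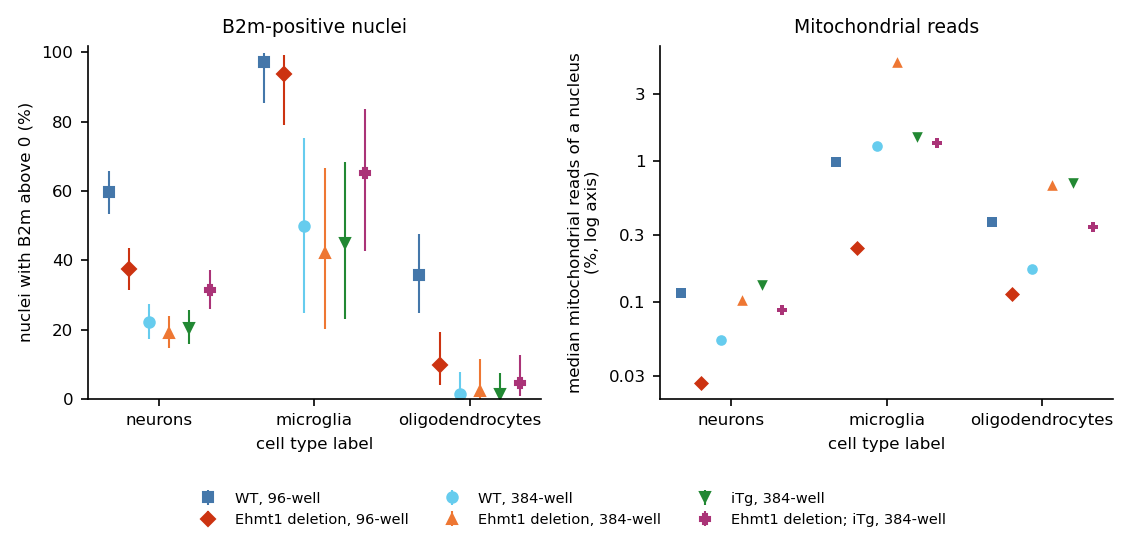
Share of nuclei with B2m above 0 (left, %, with exact 95% Clopper-Pearson intervals for counting error) and median share of mitochondrial reads per nucleus (right, %, log axis) by cell type label, 1 symbol per pool. In the 96-well plates both measures are lower in the pool labelled Ehmt1Δ/+ than in WT under each label (B2m 59.7 and 37.4%, mitochondrial reads 0.116 and 0.0267% in neurons).

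Over the 18 values (6 pools by 3 cell types) some members ran more closely together than others. Pearson's r of log2(mean RPKM + 0.1) was 0.97 for Tap1 with Tap2 and 0.98 for Psmb8 with Psmb9, but 0.57 for H2-K1 with H2-D1 and 0.39 for H2-K1 with H2-T23, the lowest of all pairs. Among 15033 other genes the pattern of H2-K1 was most like that of Pnpla7, Arpc1b and Snx29 (0.98 each), that of H2-D1 most like Cebpzos (0.96), Arrdc4 (0.95) and Sdr39u1 (0.94), and that of B2m most like Cbl, Ctsb and Serinc3 (0.97 each). The 18 points share pools, libraries and plate formats, and the values mostly reflect the difference between cell types, so they are given without a test.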

How the data were processed

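Single nuclei were sequenced by random-primed full-length total RNA sequencing (RamDA-seq). The authors trimmed reads with Fastq-mcf, aligned them to mm10 with HISAT2 2.0.4, counted them per gene with featureCounts (Subread 1.5.0) and deposited RPKM tables of both plate formats, which are the values used. No column was left unmapped (0). Gene symbols came from a reference table (52403 of 52636 identifiers matched), coordinates from GENCODE vM21 and promoters from RefSeq, both on GRCm38. H2-K1, Psmb8 and Psmb9 were matched across a change of version. Mapped read totals per nucleus were recovered from the steps of low values, with 69.9% (96-well) and 74.1% (384-well) of values whole within 0.001 read. The scripts were tested on simulated data.

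The mean over nuclei of the same label was taken in each pool, and log2(mean RPKM + 0.1) was tested with limma 3.58.1 (R 4.3.3) and Benjamini-Hochberg adjustment over all genes tested, which were those detected in 10% or more of the nuclei of 1 genotype in both plate formats, of 1 neuron class in 3 pools or of 2 pools for the transgene. A fold change on this scale understates that of low genes. Depth was compared after thinning to 240000 (96-well) or 20000 (384-well) reads. Python 3.11.15 with pandas 2.3.3 and SciPy 1.17.1 was used. Tests on single nuclei were not used, since nuclei of 1 pool are not replicates. The p-values measure only the spread between pools, which may be technical.

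Members and lists were chosen with earlier results of these data known. All 10 members are named. Of each list the text names the genes called or, where none was called, those with the highest level, and for H2-K1, H2-D1 and B2m the 3 most correlated genes whose symbol is not that of a predicted gene, pseudogene or small RNA. The study's text describes CamKII-CreER in all 384-well groups and the labels in 2 of them, and the labels were followed. Mapping to shared copies was not undone, and protein sequences were not used here.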

Additional observations from a re-analysis of the deposited data

Results flagged for a closer look

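For 5 members the log2 ratio to WT had opposite signs in neurons and microglia labelled Ehmt1Δ/+, in both plate formats. The share of all genes with such signs was not computed. Some of these signs rested on small values. They were -0.024 for Nlrc5 in 96-well neurons, -0.13 and -0.12 for Psmb8 in neurons, and -0.063 and -0.076 for H2-T23 in microglia. The difference of the 2 deletion effects, microglia minus neurons, on the log2(RPKM + 0.1) scale was 2.11 for Tap1, 0.53 for Tap2 and -0.55 for H2-T23. A test of this difference, added after the data were seen, gave an adjusted p of 0.918 by limma for each of the 3 among 12616 genes, of which 0 passed and 0.824% were higher and 0.896% lower at an unadjusted p under 0.05. For Psmb8 (1.37) and Nlrc5 (1.41) neurons were too low for the test, and the difference was not tested.

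For Tap1 the mean was -0.57 in neurons and 1.54 in microglia, and the microglial value was 0.70 for 96-well plates against 2.38 for 384-well plates, where 3 of 16 WT and 15 of 19 Ehmt1Δ/+ nuclei were positive. With transgene and CamKII-CreER both signs were the other way, with 0.260 and 0.518 RPKM in neurons and 18.8 and 15.9 RPKM in microglia of iTg and Ehmt1Δ/+;iTg.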

How the results depend on the processing

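Of the counts recomputed over all genes, cell types or nuclei, 46 stayed within 1.5 times and 5 did not: 6 genes were called in oligodendrocytes with the mean of log2(RPKM + 1), 10 with the transgene after centring pools on their median, 5898 between neuron classes set by 1 marker above 0 and the other at 0, and 3 members by median RPKM or 4 without nuclei holding an endothelial marker, in place of 10, were higher in microglia without overlap. That last filter left 1 of 36 WT 96-well microglia. Between neuron classes 8698 to 9388 genes were called without each pool in turn, and without the highest nucleus of each pool 4196 were higher and 6626 lower, against 5457 and 4915. H2-T23 and Nlrc5 were called under each alternative run, at -2.50 to -2.14 and 2.51 to 2.85 without each pool.

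Signs changed as follows. In neurons labelled Ehmt1Δ/+ H2-D1 was -0.042 with the mean of log2(RPKM + 1) and -0.063 to 0.22 by plate format alone. In microglia B2m was 0.044 with 6 pools, H2-T23 0.022 with the mean of log2(RPKM + 1), and without endothelial-marker nuclei Tap2 was -3.78, Tap1 -1.88, B2m 4.94, H2-K1 1.31 and H2-T23 3.38. With the transgene Tap1 ranged from -1.01 to 0.53 and H2-K1 from -0.97 to 0.12 by background. Between neuron classes Tap1 was -0.54 and H2-K1 -0.84 with classes by 1 marker, Tap1 -0.38 and H2-K1 -0.26 without the highest nucleus, H2-K1 -0.0082 with the mean of log2(RPKM + 1), and Tap1 -0.053 to 0.40 without each pool. Beyond the fewer nuclei or pools left, the cause was not tested. No paired analysis was possible because replicate numbers only count the nuclei of a pool and mark no shared mouse. The 3 plate codes that WT and Ehmt1Δ/+ share in the 96-well format were not used as a block, since parts of 1 pool are not replicates and a shared code is not a shared plate.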

Other observations

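The 15 interferon response genes summed to 39.9 to 46.7 RPKM in neurons and to 161.6 to 251.8 RPKM in microglia, the direction of the class I genes. Some single genes had lower ranges in microglia. Ifit1 stood at 1.19 to 3.09 RPKM in neurons and at 0 to 0.426 RPKM in microglia, Ifit3 at 0.725 to 2.01 and 0 to 1.0 RPKM, and Isg15 at 2.75 to 6.72 and 0 to 5.09 RPKM. The ranges of Ifit3 and Isg15 overlapped between the cell types. The 384-well microglia had fewer reads than the neurons, and the part of depth in the zeros was not tested. Interferon receptor chains stood higher in microglia, with Ifngr1 at 0.835 to 1.80 RPKM in neurons and 48.9 to 133.8 RPKM in microglia and Ifnar2 at 1.38 to 1.97 and 15.8 to 32.6 RPKM. Usp18 and Bst2 had a higher mean over the pools in microglia, at 0 to 11.2 and 0.858 to 10.4 RPKM, against 0.111 to 0.239 and 0 to 0.0813 RPKM in neurons. Ifit3, Ifngr1, Ifnar2, Usp18 and Bst2 were picked out after their values were seen.

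Receptors and unusual heavy chains also differed by label. Pirb, a receptor of class I molecules, stood at 5.79 to 26.5 RPKM in microglia and 0.217 to 0.412 RPKM in neurons. H2-M5 was seen mainly in neurons, at 1.56 to 2.13 RPKM against 0 to 0.285 RPKM in microglia, and H2-M3 mainly in microglia, at 8.96 to 55.3 against 1.22 to 1.71 RPKM. H2-M5 and H2-M3 were picked out after their values were seen, and these cell type differences are descriptions without a test.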
